A study of Mus musculus with 35 samples.

Results

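The double mutant of NELFB (DMT), which carries the MT194 and MT486 substitutions in 1 protein, was compared with MT194 alone and MT486 alone after deletion of the endogenous gene. The comparison used 6 RNA-seq samples of the 35 in the series, chosen by construct and virus as labelled and not by any measured value: DMT-Cre (n = 2), MT194-Cre (n = 2) and MT486-Cre (n = 2). All were immortalized mouse embryonic fibroblasts (MEFs) of genotype Nelfb flox/-, with 1 floxed and 1 null allele, grown in 10% FBS in DMEM and harvested 7 days after infection with Ad-Cre-GFP, an adenovirus that delivers the Cre recombinase and GFP. Before infection each cell population had received pLenti-DMT(MT194&486), pLenti-MT194 or pLenti-MT486, a lentivirus in which a CMV promoter drives C-terminally flag-tagged mouse NELFB. Reference groups from the same experiment were the empty vector (EV-Cre), wild-type NELFB (WT-Cre) and the same 5 constructs after Ad-GFP, which leaves the floxed allele in place (n = 2 each, 20 samples in all). These are mixed, drug-selected populations and not clones, so cells that escaped Cre and cells of differing transgene level are averaged, and a change in the share of cells in a state cannot be told apart from a change in RNA per cell. Replicates 1 and 2 are separate biological repeats in the labels, and p-values measure only the spread between such pairs.

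NELFB is 1 of 4 subunits of the negative elongation factor, which holds RNA polymerase II at its pause site shortly after transcription starts. It bridges the NELFA/NELFC lobe and NELFE. MT194 is the mutant deficient in the first of these contacts and MT486 the mutant deficient in the second, so DMT addresses what is lost from the transcriptome when both sets of substitutions are combined. The contacts of DMT itself were not measured in these data.

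The sequences of the 2 substitutions are given because they define the groups. Each pair gives the wild-type Nelfb stretch from the annotated transcript (GENCODE, mm10, minus strand of chromosome 2) and the study's mutagenesis oligo over the same bases, 5′ to 3′, with the 3 changed codons in capitals. The MT194 oligo differs from the transcript at 5 bases, in exon 4 of 13, with the codons at chr2:25210010-25210018. The MT486 oligo differs at 6 bases, in exon 10 of 13, with the codons at chr2:25203169-25203177. Counted from the annotated start codon these are codons 196 to 198 and 488 to 490, in each case 2 higher than the number in the mutant's name.
wild type at MT194: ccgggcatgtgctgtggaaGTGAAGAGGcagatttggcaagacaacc
MT194: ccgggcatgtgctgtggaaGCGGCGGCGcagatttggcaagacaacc
wild type at MT486: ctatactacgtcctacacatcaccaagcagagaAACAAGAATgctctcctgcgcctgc
MT486: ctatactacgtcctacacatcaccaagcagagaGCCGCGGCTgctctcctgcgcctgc

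Reads assigned to genes ranged from 20175394 to 27726070 in the 6 libraries compared and from 17969149 to 29080007 in all 20. Reads on no annotated gene made up 14.2% to 19.7% of the total in the 6 libraries. Levels are given as CPM, read counts scaled to library size and composition and not to gene length. The label fibroblast was borne out by the markers, since 11 of 12 fibroblast markers passed the filter on low counts and Fn1, encoding fibronectin, averaged 18100 CPM in the 6 libraries. Defining genes of other types were listed at 0 in all 6 libraries, among them Epcam (epithelium), Tie1 and Cldn5 (endothelium), Cd3e and C1qa (leukocytes), Myod1 (muscle) and Sox10 (glia). Some markers of those lists were present, with Cd14 (macrophage and leukocyte) at a mean of 266 CPM in the 6 libraries and Nes (neural) at 115. No adipocyte marker was at 0 in all 6, and the most abundant, Fabp4, averaged 70.2 CPM. The summed fibroblast markers were 23220 and 42340 CPM in DMT-Cre, 23460 and 44470 in MT194-Cre and 20980 and 34630 in MT486-Cre, so the repeats differed more than the constructs did.

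The targeted gene was checked first. Nelfb (chromosome 2, 25199712 to 25211489, mm10) was at 7.97 and 5.46 CPM in EV-Cre, against 169 and 208 in DMT-Cre, 104 and 118 in MT194-Cre, 116 and 128 in MT486-Cre, and 75.9 and 60.5 in WT-Cre. Both DMT-Cre samples lay above all 4 single-mutant samples, and Nelfb was higher in DMT-Cre by 0.70 on the log2 scale (SE 0.13, edgeR adjusted p = 0.00996). Without DMT-Cre replicate 2 the value was 0.44 (edgeR adjusted p = 0.236). The transgene is mouse Nelfb cDNA, so its reads count toward the gene, and what is plotted is endogenous plus transgene RNA. After Ad-GFP the contrast was -0.18 (edgeR adjusted p = 0.77). The other subunits Nelfa, Nelfcd and Nelfe were not called, with changes of -0.13, -0.04 and -0.16. Nelfb RNA was thus higher in DMT-Cre in all the comparisons with the single mutants after Ad-Cre, and whether it plays a part was not tested.

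**Figure D1:**
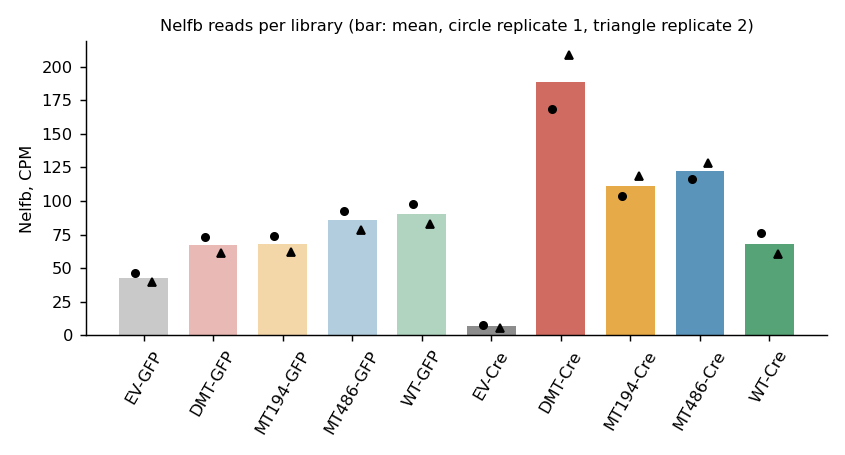
Nelfb reads per library in CPM for the 5 constructs after Ad-GFP (pale bars) and Ad-Cre (full bars), with the bar at the mean, a circle for replicate 1 and a triangle for replicate 2. EV-Cre sits at 7.97 and 5.46 CPM, and the 2 DMT-Cre samples, at 169 and 208, are above every other sample.

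With both substitutions in 1 protein, most NELFB-dependent genes lay nearer their level in EV-Cre than they did with either substitution alone. Called genes of the hypoxia, antioxidant, ATF4 and immediate early lists were higher in DMT-Cre than the mean of the single mutants. The collagen genes Col6a3 and Col2a1 and the receptor gene Nrp2 were lower. The collagen and matrix list as a whole had a median of -0.02. Of 13805 genes tested, 153 were called (edgeR adjusted p under 0.05 and a log2 fold change beyond 0.5 in either direction), 1.11% of those tested. DMT-Cre was higher for 102 of them (0.739%) and lower for 51 (0.369%). Within each repeat taken alone, 30.3% of all genes tested were higher in both repeats than the mean of the single mutants and 33.8% were lower in both. For all 153 called genes the sign was the same in both repeats. They were called on these same samples with the repeat as a block, so this adds no separate support to the count. The count rested on the pairing of repeats and on single libraries: it was 1 without the replicate block (Ndn), 12 without DMT-Cre replicate 2 and 86 without MT486-Cre replicate 1. Of 41 genes that the naming rule gave and that passed an adjusted p of 0.05, 8 also passed it without DMT-Cre replicate 2, among them Egln3, Bnip3, Hmox1, Gsta4, Atf3, Cdh13 and Col6a3, and the rest of the 41 did not.

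Against each single mutant on its own, DMT-Cre differed from MT194-Cre at 121 genes (0.876%; 63 higher, 58 lower) and from MT486-Cre at 424 genes (3.07%; 259 higher, 165 lower). The first count was 20 without DMT-Cre replicate 2, 42 without MT194-Cre replicate 2 and 294 without MT194-Cre replicate 1. The second was 122 without DMT-Cre replicate 2, and 115 and 178 without MT486-Cre replicates 1 and 2. These 2 comparisons share the DMT-Cre samples. Called in the same direction against both were 44 genes (0.319%), 34 higher and 10 lower in DMT-Cre. A further 6 genes were called against the mean and against neither mutant singly.

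NELFB-dependent genes were defined by contrasts of EV and WT samples only, within the fit of all 20 libraries that also set the gene filter, the spread and the block: 2169 genes called in EV-Cre against EV-GFP (3502 genes, 25.4% of those tested) and called in the opposite direction in WT-Cre against EV-Cre (3175 genes, 23%). On a scale where EV-Cre is 0 and WT-Cre is 1, the median gene stood at 0.231 in DMT-Cre, 0.414 in MT194-Cre and 0.538 in MT486-Cre. Within replicate 1 the medians were 0.247, 0.443 and 0.596, and within replicate 2 they were 0.234, 0.41 and 0.501, so the order of the 3 constructs was the same in both repeats. The middle 50% of genes ran from 0.0883 to 0.381 in DMT-Cre, from 0.215 to 0.617 in MT194-Cre and from 0.377 to 0.722 in MT486-Cre. The share of genes past the midpoint was 13.4% with DMT, 37.4% with MT194 and 56.2% with MT486. DMT-Cre had the lowest of the 3 values at 1510 of the genes (69.6%). The constructs share the EV-Cre and WT-Cre samples on this scale, so it is a description with no test.

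**Figure D2:**
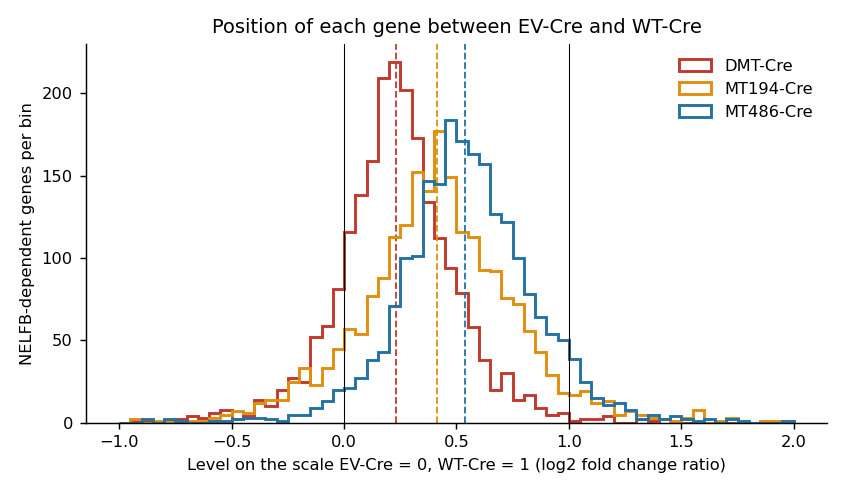
Histograms of the 2169 NELFB-dependent genes by their position between EV-Cre (0) and WT-Cre (1) in DMT-Cre, MT194-Cre and MT486-Cre, with dashed lines at the medians and values beyond -1 and 2 not drawn. The DMT-Cre histogram is shifted to the left, with its median at 0.231 against 0.414 and 0.538.

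The direct contrast gave the loss in each direction. DMT-Cre lay on the EV-Cre side of the mean of the single mutants for 1905 of the 2169 genes (87.8%), by a median of 0.22 on the log2 scale. For genes that had fallen in EV-Cre against EV-GFP the share was 87.4% of 1063, and for genes that had risen it was 88.2% of 1106. Of the 1063 fallen genes 28 were called on the EV-Cre side, where 0.369% of all genes tested were called lower in DMT-Cre. Of the 1106 risen genes 75 were, where 0.739% of all genes tested were called higher. On the other side 4 genes were called. Those 4 were Nelfb itself, Fam69c, Tmem171 and Ugt2b34. Over all genes tested the sign was that of the EV Cre effect for 69.8%, and over the 153 called genes for 90.8%. Across genes, which are not independent replicates, the contrast and the EV Cre effect, measured on separate samples, had Pearson's r of 0.456 and Spearman's rho of 0.503.

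**Figure D3:**
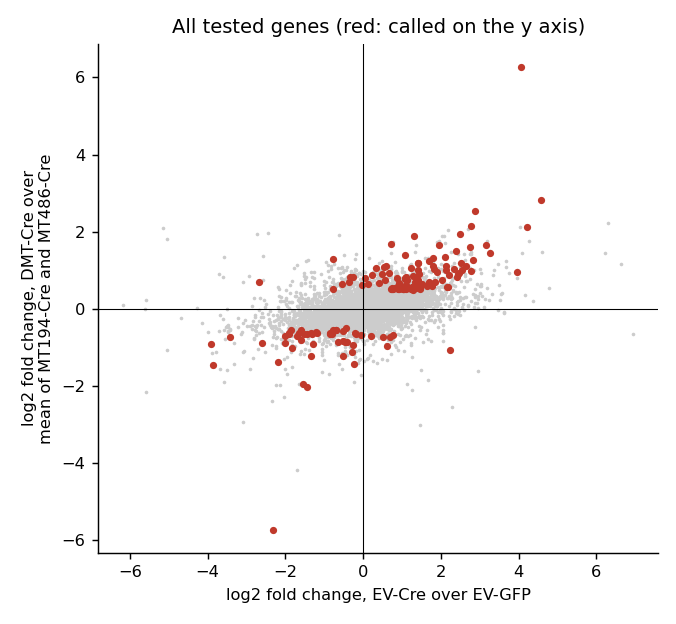
Each point is a tested gene, with the log2 fold change of EV-Cre over EV-GFP on the x axis and that of DMT-Cre over the mean of MT194-Cre and MT486-Cre on the y axis, and called genes in red. Most red points lie in the lower left and upper right of the plot, 139 of 153 with the same sign on both axes.

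Set against the empty vector, DMT-Cre differed from EV-Cre at 48 genes (0.348%), MT194-Cre at 858 (6.22%) and MT486-Cre at 1236 (8.95%). The 3 comparisons share EV-Cre, and the difference between constructs is tested by the direct contrasts above. Among the 48 were Nelfb, raised by the transgene, and a few genes that DMT still moved in the direction of WT-Cre, such as the stress gene Ddit3 (-0.52, edgeR adjusted p = 0.0356). Against WT-Cre, DMT-Cre differed at 1965 genes (14.2%).

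Hypoxia and glycolysis genes had the highest median of the 22 lists that are not cell type markers. Of 29 tested members, 8 were called higher, where 0.739% of all genes were, and none lower in DMT-Cre. The median change was 0.42 against -0.01 for all genes tested. Higher in both repeats were 26 members, where 30.3% of all genes tested were. The median was 0.34 within replicate 1 and 0.55 within replicate 2. Egln3, the oxygen-sensing prolyl hydroxylase induced by hypoxia (chromosome 12, 54178981 to 54203860), stood at 3.52 and 4.31 CPM in DMT-Cre, 1.29 and 0.433 in MT194-Cre and 0.448 and 0.621 in MT486-Cre. Its change of 2.53 (SE 0.28, edgeR adjusted p = 0.000242) left it near the EV-Cre samples, which were at 5.32 and 4.05. Bnip3, a mitophagy receptor (chromosome 7, 138890836 to 138909519), was at 89.1 and 70.6 CPM in DMT-Cre, 64.0 and 42.2 in MT194-Cre and 52.5 and 29.7 in MT486-Cre, higher by 0.81 (SE 0.10, edgeR adjusted p = 0.000627). No DMT-Cre sample overlapped the single mutants for Bnip3, Egln1 or Hk2. Hk2, the hexokinase of glycolytic cells, reached 112 and 130 CPM against 76.2 to 94.1 in the 4 single-mutant samples (0.51, edgeR adjusted p = 0.00115). Egln1, the main HIF prolyl hydroxylase, was at 197 and 199 CPM against 108 to 152 (0.65, edgeR adjusted p = 0.00166). Vegfa, the angiogenic growth factor, differed more between repeats than between constructs, with 448 and 810 CPM in DMT-Cre, 269 and 556 in MT194-Cre and 241 and 451 in MT486-Cre. Its change of 0.75 (edgeR adjusted p = 0.00203) is within repeats, where it was 0.81 and 0.69. The glucose transporter gene Slc2a1 (0.75), Pdk1 (0.52), which diverts pyruvate from mitochondria, and Ankrd37 (0.88) completed the 8. Ldha was not called (0.24, edgeR adjusted p = 0.162). In EV-Cre against EV-GFP, 21 of the 29 were called higher, where 12.4% of all genes were, and their change in DMT-Cre against EV-Cre had a median of -0.14, against -0.58 with MT194 and -0.51 with MT486. Without DMT-Cre replicate 2, 2 of the members stayed called and the median was 0.26.

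**Figure D4:**
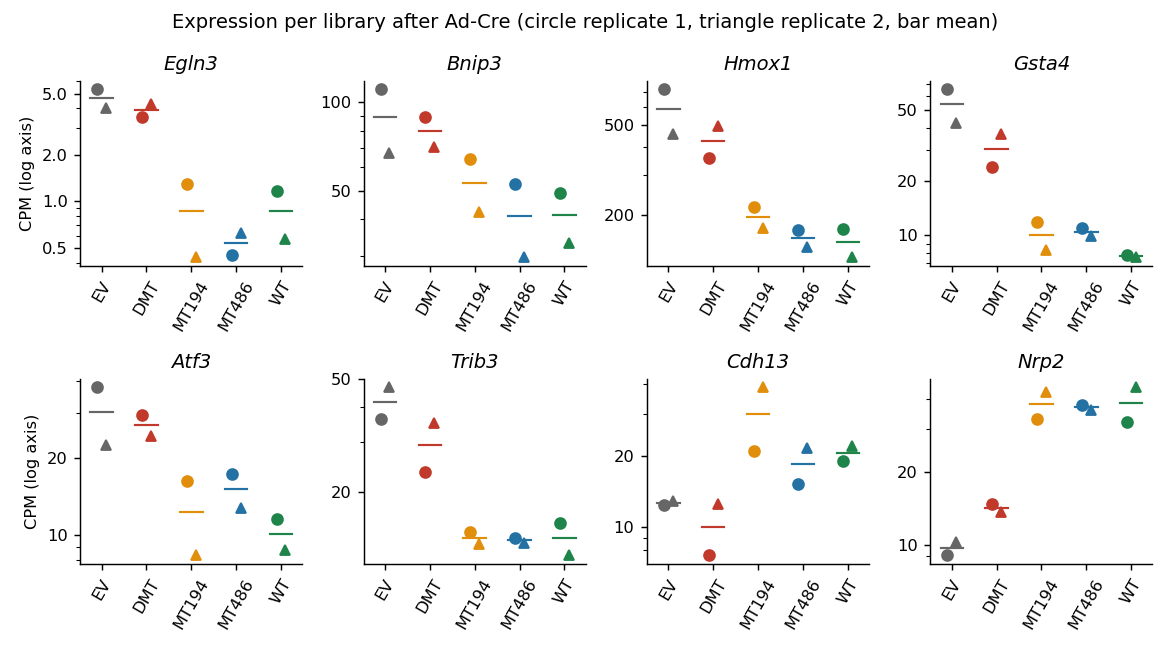
CPM on a log axis in each Ad-Cre library for Egln3, Bnip3, Hmox1, Gsta4, Atf3, Trib3, Cdh13 and Nrp2, with circles for replicate 1, triangles for replicate 2 and bars at group means. In the first 6 genes both DMT samples lie above the 4 single-mutant samples, and in Cdh13 and Nrp2 they lie below them.

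Promoter sequence is shown for the hypoxia genes because 8 were called in 1 direction and the HIF factors that serve such genes are known to bind a short core, ACGTG. This core (CACGT on the other strand) was searched in RefSeq promoter windows of 300 bases (GRCm38.p6, 250 before and 50 after the start). A match was present for 7 of the 8 called members, all but Pdk1, for 20 of the 28 members with a window, and for 21.8% of all 27025 genes with a window (19.6% of 32851 windows). A window with CACGTG holds the core on both strands and is also an E-box, the site of other factors. A match is a description of sequence only. The 250 bases before the start are printed for the 3 members with the smallest adjusted p, with matches in capitals. Egln3 is at chr12:54203875-54204124, Bnip3 at chr7:138909507-138909756 and Hk2 at chr6:82774455-82774704, all on the minus strand.
Egln3: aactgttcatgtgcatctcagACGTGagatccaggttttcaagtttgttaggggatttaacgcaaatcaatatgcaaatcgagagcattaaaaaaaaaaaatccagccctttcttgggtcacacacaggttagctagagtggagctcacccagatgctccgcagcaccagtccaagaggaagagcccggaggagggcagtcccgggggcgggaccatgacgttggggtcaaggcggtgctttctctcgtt
Bnip3: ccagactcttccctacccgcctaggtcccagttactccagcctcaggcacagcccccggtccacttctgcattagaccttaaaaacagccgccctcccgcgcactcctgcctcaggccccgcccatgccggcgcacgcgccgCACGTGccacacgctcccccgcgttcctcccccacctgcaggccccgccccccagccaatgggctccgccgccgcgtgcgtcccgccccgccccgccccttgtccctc
Hk2: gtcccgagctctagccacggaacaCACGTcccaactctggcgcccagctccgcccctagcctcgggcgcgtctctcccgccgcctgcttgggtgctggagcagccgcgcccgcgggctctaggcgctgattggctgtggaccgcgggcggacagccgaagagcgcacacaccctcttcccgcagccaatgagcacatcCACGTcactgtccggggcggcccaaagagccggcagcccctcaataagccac

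Targets of NRF2, the factor that answers oxidative stress, gave 7 called higher (0.739% of all genes) and none lower of 24 tested, with a median of 0.23 against -0.01 for all genes. Hmox1, heme oxygenase 1 (chromosome 8, 75093621 to 75100589), was at 357 and 493 CPM in DMT-Cre, 216 and 175 in MT194-Cre, 171 and 144 in MT486-Cre and 718 and 458 in EV-Cre. The single mutants were near the WT-Cre samples (172 and 129), while DMT-Cre was higher by 1.32 (SE 0.16, edgeR adjusted p = 0.00115), with within-repeat differences of 0.89 and 1.63. Gsta4, a glutathione transferase (chromosome 9, 78182774 to 78209349), was likewise higher in DMT-Cre, at 24.0 and 36.9 CPM in DMT-Cre, 11.8 and 8.28 in MT194-Cre and 11.0 and 9.94 in MT486-Cre (1.59, SE 0.19, edgeR adjusted p = 0.00101). Slc7a11, the cystine importer, was at 17.4 and 47.95 CPM in DMT-Cre, 7.30 and 8.91 in MT194-Cre and 9.76 and 21.8 in MT486-Cre, so the groups overlapped although the change was 1.46 (edgeR adjusted p = 0.0081). Txnrd1, thioredoxin reductase, rose from a range of 184 to 246 CPM in the single mutants to 297 and 329 (0.54, edgeR adjusted p = 0.00484). Srxn1 (0.77), Gsta3 (0.92) and Nqo1 (0.70) were the other called members, of which Gsta3 has close copies that may share its reads. This list depended on the repeat more than the hypoxia list, with medians of 0.09 within replicate 1 and 0.41 within replicate 2, and 2 members stayed called without DMT-Cre replicate 2. The values were then 0.82 for Hmox1, 1.06 for Gsta4, 0.89 for Slc7a11 and 0.29 for Txnrd1.

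The ATF4 list, genes of the amino acid and integrated stress response, had 3 of 25 called higher (0.739% of all genes), none lower and a median of 0.29. Trib3, a pseudokinase induced by ATF4, was at 23.6 and 35.1 CPM in DMT-Cre, and the single mutants were tightly grouped at 14.4 and 13.1 (MT194-Cre) and 13.7 and 13.2 (MT486-Cre). The change was 1.12 (SE 0.21, edgeR adjusted p = 0.0141), and EV-Cre was at 36.3 and 46.9. Chac1, which degrades glutathione, was at 25 and 24.6 CPM against 13.3 to 22.2 in the single mutants (0.52, edgeR adjusted p = 0.0375). Slc7a11, which also stands in the NRF2 list, was the third. The composite ATF4 core TGATGNAA (TTNCATCA on the other strand) was searched in the same windows. It was found for all 3 called members, for 7 of the 22 members with a window and for 4.51% of all genes with a window, tested here or not. The Slc7a11 promoter, chr3:50443614-50443863 on the minus strand, holds it on both strands (capitals). Against MT486 alone neither Chac1 (0.41, edgeR adjusted p = 0.116) nor Slc7a11 (1.02, edgeR adjusted p = 0.0556) was called. No member was called without DMT-Cre replicate 2, where the median was 0.13 and the values were 0.66 for Trib3, 0.89 for Slc7a11 and 0.21 for Chac1.
Slc7a11: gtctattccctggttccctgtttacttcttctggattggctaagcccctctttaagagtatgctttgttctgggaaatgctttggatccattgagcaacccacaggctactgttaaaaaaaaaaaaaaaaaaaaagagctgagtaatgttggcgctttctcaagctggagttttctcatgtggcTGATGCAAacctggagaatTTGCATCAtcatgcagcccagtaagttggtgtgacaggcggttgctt

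Immediate early and ERK feedback genes gave 4 of 34 called higher (0.739% of all genes) and none lower, with a median of 0.23. Atf3, a stress-induced transcription factor, was at 29.5 and 24.4 CPM in DMT-Cre, 16.3 and 8.38 in MT194-Cre and 17.4 and 12.8 in MT486-Cre (1.01, SE 0.13, edgeR adjusted p = 0.000678). Dusp4, a MAP kinase phosphatase, was at 19.3 and 24.7 CPM against 9.63 to 12.5 in the single mutants (1.03, edgeR adjusted p = 0.00122). Fosl1, an AP-1 subunit, was at 7.72 and 9.29 CPM against 2.74 to 6.13 (1.02, edgeR adjusted p = 0.00756). It was not called against MT486 alone (0.72, edgeR adjusted p = 0.0627). Dusp10, the JNK and p38 phosphatase, changed by 0.52 (edgeR adjusted p = 0.0224) and was not called against MT194 alone (0.53, edgeR adjusted p = 0.0645). The EV-Cre samples were at 37.8 and 22.5 CPM for Atf3 and at 31.2 and 24.0 for Dusp4. Without DMT-Cre replicate 2, 1 member was called, and the values were 0.65 for Dusp4 and 0.61 for Fosl1. Genes of the PI3K-AKT and RAF-MEK-ERK kinases themselves had none of 32 called and a median of 0.02.

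Among inflammatory genes 2 of 30 were called, both higher in DMT-Cre, where 0.739% of all genes were. Tnfaip3, the NF-kB feedback inhibitor A20, was at 151 and 174 CPM against 91.2 to 115 in the single mutants (0.70, edgeR adjusted p = 0.00356). Csf2, encoding the cytokine GM-CSF, was low at 1.80 and 2.23 CPM in DMT-Cre, 0.303 and 0.626 in MT194-Cre and 1.12 and 1.69 in MT486-Cre, with a change of 1.33 (edgeR adjusted p = 0.0102) that was larger against MT194 (2.15) than against MT486 (0.52). Single calls in further lists were Gadd45b in the YAP/TEAD list (0.58) and, in opposite directions, Plk2 (0.57) and Eda2r (-0.73) in the Trp53 list. In EV-Cre against EV-GFP, 32 of 44 interferon-stimulated genes were called higher, where 12.4% of all genes were. None of the 44 was called in DMT-Cre against the mean of the single mutants, and their median was 0.05. Markers of other cell types gave Pparg, the adipocyte regulator, at 7.99 and 6.62 CPM against 3.47 to 6.18 (0.61), and Csf1r, the macrophage receptor, at 3.25 and 3.87 CPM against 1.29 to 1.95 (1.12, edgeR adjusted p = 0.00598). The median of the 4 adipocyte markers tested was 0.66, above that of every other list, and 3 of the 4 were higher in both repeats. Pparg was the one called, Cebpa (0.79, edgeR adjusted p = 0.0891) was called against MT486 alone (1.19), Retn was at 0.70 (edgeR adjusted p = 0.401) and the most abundant, Fabp4, at -0.09. The summed adipocyte markers were 96.9 and 75.8 CPM in DMT-Cre, 87.8 and 79.5 in MT194-Cre and 96.6 and 69.7 in MT486-Cre. In the macrophage and leukocyte list Cd14, the most abundant, was at -0.13 (edgeR adjusted p = 0.738), and Tyrobp and C1qa were listed at 0. The part of other cell types in these values was not tested.

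**Figure D5:**
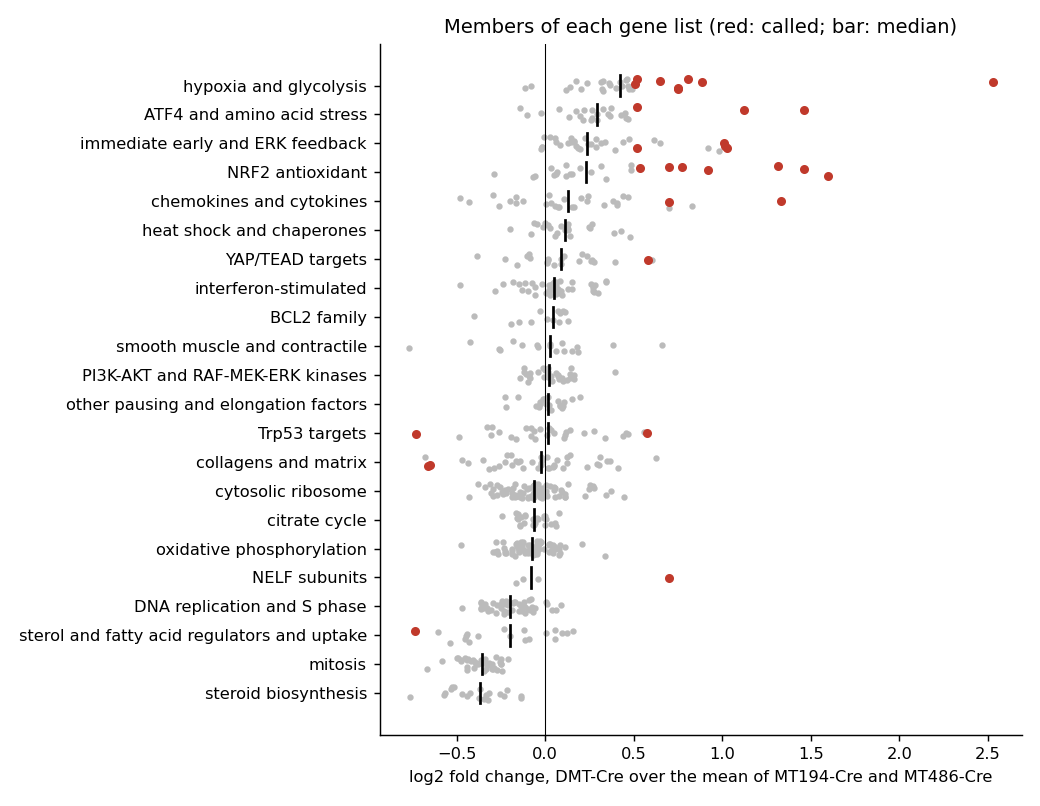
Each row is 1 of the 22 gene lists that are not cell type markers, and each point a tested member, placed by its log2 fold change in DMT-Cre over the mean of MT194-Cre and MT486-Cre, with called members in red and a bar at the median. Of these the hypoxia and glycolysis list has the highest median, 0.42, and steroid biosynthesis the lowest, -0.37.

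In the contrast, 7122 of all 13805 genes tested had values below 0. All 20 genes tested of steroid biosynthesis, the pathway that makes cholesterol, did so, with a median of -0.37. None was called, and the smallest edgeR adjusted p among them was 0.0602 (Sc5d). Against MT486-Cre alone 2 were called lower, where 3.07% of all genes were called in either direction, and against MT194-Cre alone none was. Against EV-Cre their medians were 0.47 in DMT-Cre, 0.90 in MT194-Cre, 0.98 in MT486-Cre and 2.28 in WT-Cre. Members called were 0, 13 and 17 for the 3 mutants, where 0.348%, 6.22% and 8.95% of all genes were. Hmgcs1, the HMG-CoA synthase, illustrates them with 108 and 53.9 CPM in DMT-Cre, 155 and 77.0 in MT194-Cre and 140 and 88.0 in MT486-Cre, a change of -0.52 (edgeR adjusted p = 0.113) smaller than the gap between repeats. All 38 mitosis genes were negative as well, with a median of -0.35 and none called, and their median in the same contrast after Ad-GFP was -0.27. Mki67, the proliferation marker, was at 350 and 289 CPM in DMT-Cre, 432 and 347 in MT194-Cre and 432 and 422 in MT486-Cre, a change of -0.35 (edgeR adjusted p = 0.675).

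Of 42 collagen and matrix genes 2 were called, both lower, where 0.369% of all genes were, at a list median of -0.02. Col6a3, a collagen VI chain, was at 115 and 205 CPM in DMT-Cre, 154 and 298 in MT194-Cre and 214 and 343 in MT486-Cre (-0.65, SE 0.10, edgeR adjusted p = 0.00212). For Col6a3 and for Col18a1, the source of endostatin, the DMT-Cre samples overlapped the range of the single-mutant samples. Col18a1 was not called in EV-Cre against EV-GFP (-0.05, edgeR adjusted p = 0.773). Against EV-Cre it stood at -0.90 in DMT-Cre (edgeR adjusted p = 0.00573) and -0.72 in MT194-Cre (edgeR adjusted p = 0.0021). Col18a1 was lower by 0.66 against the mean but was close to MT194 (-0.18) and differed from MT486 (-1.14). Nrp2, a semaphorin and VEGF-C receptor, fell against both, at 14.8 and 13.6 CPM in DMT-Cre, 32.9 and 42.7 in MT194-Cre and 37.7 and 35.8 in MT486-Cre (-1.38, SE 0.23, edgeR adjusted p = 0.0116). The atypical cadherin gene Cdh13 was at 7.61 and 12.5 CPM against 15.2 to 38.9 (-1.22, edgeR adjusted p = 0.000627). Unc5c, a netrin receptor, was at 12.9 and 13.4 CPM, and the single mutants were at 30.5 and 40.9 (MT194-Cre) and 15.2 and 21.0 (MT486-Cre), so most of its change of -0.93 was against MT194. EV-Cre was at 11.7 and 12.1 CPM and WT-Cre at 7.62 and 13.4, and the gene was not called in EV-Cre against EV-GFP (-0.26, edgeR adjusted p = 0.286) or in DMT-Cre against WT-Cre (0.38, edgeR adjusted p = 0.145). MT194-Cre was above WT-Cre by 1.79 (edgeR adjusted p = 9.26e-06). Col2a1, the cartilage collagen, was at 3.48 and 3.91 CPM against 9.39 to 28.5 (-2.03, edgeR adjusted p = 0.00151). The reference samples were at 5.50 and 6.97 CPM in WT-Cre and 1.44 and 2.45 in EV-Cre. Against WT-Cre the gene stood at -0.75 in DMT-Cre (edgeR adjusted p = 0.0802), 0.71 in MT194-Cre (edgeR adjusted p = 0.0804) and 1.84 in MT486-Cre (edgeR adjusted p = 0.0011). It was also the one gene called lower in DMT after Ad-GFP. Pi15, a secreted peptidase inhibitor (-1.23), Igsf1 (-1.12), Tmem171 (-1.06), Fmo1, a monooxygenase (-0.91), Slc15a2, a peptide transporter (-0.92), and Npr1, the natriuretic peptide receptor (-0.88), completed, with Nrp2, Cdh13, Unc5c and Col2a1, the 10 largest called decreases where the groups did not overlap and counts averaged 50 or more. For Npr1 the value was -0.58 (edgeR adjusted p = 0.415) without DMT-Cre replicate 2, and the call was lost in 6 of the alternatives that kept the block.

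The remaining large increases were in genes outside the lists. Gpr35, a G protein-coupled receptor, was at 3.36 and 6.46 CPM in DMT-Cre, 1.06 and 0.915 in MT194-Cre, 1.03 and 1.33 in MT486-Cre and 0.166 and 0.143 in WT-Cre, a change of 2.12 (SE 0.28, edgeR adjusted p = 0.00101). Fam69c, at 1.57 and 2.31 CPM against 0.454 to 1.16 (1.29) and also called higher after Ad-GFP (1.02, edgeR adjusted p = 0.0396), Pard3b, a polarity protein, at 4.01 and 4.31 against 1.54 to 2.53 (1.08), and the transcript 1810011O10Rik (1.03) were also among the named increases. For 1810011O10Rik the value was 0.53 (edgeR adjusted p = 0.379) without DMT-Cre replicate 2. Oxidative phosphorylation, the citrate cycle, cytosolic ribosomal proteins, DNA replication, heat shock, smooth muscle, the BCL2 family and other pausing factors had no called member, with medians between -0.20 (DNA replication) and 0.12 (heat shock).

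The same contrast after Ad-GFP, where the floxed allele still supplies NELFB, gave 35 called genes (0.254%), 34 of them higher in DMT-GFP. For 6 of the 153 genes the call was made in the same direction in both. Ndn, the imprinted gene necdin, was one of these, at 42.7 and 49.3 CPM in DMT-Cre, 41.3 and 48.9 in MT194-Cre and 16.2 and 14.8 in MT486-Cre, and at 34.6 and 37.9, 30.4 and 31.6, and 12.6 and 12.6 after Ad-GFP. Its excess was therefore against MT486 in either virus. It was picked out here because it was the single call without the replicate block. Mmp9, a matrix metalloproteinase, was higher in DMT-GFP, at 6.39 and 10.7 CPM against 1.62 to 4.67 (1.52, edgeR adjusted p = 0.00536), as was Gprc5c (1.35). Trim30d (1.26) is a member of a tandem family whose copies may share reads, so its value is uncertain. Of the lists, interferon-stimulated genes had 2 members called higher after Ad-GFP, where 0.246% of all genes were. Their median was 0.52 after Ad-GFP and -0.44 for the difference of Cre effects, beside 0.05 after Ad-Cre, and the medians of all genes tested were within 0.01 of 0. The count was 1 without DMT-GFP replicate 2, 13 without DMT-GFP replicate 1, 4 without MT194-GFP replicate 2 and 7 without MT486-GFP replicate 2.

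Testing the difference of the Cre effects, DMT against the mean of the single mutants, called 16 genes (0.116%), 8 in each direction, and 0 with only the 12 libraries of the 3 mutants. The count was 0 without DMT-GFP replicate 2, 1 without DMT-Cre replicate 2, 78 without DMT-Cre replicate 1 and 90 without MT194-Cre replicate 1, and it was 5 to 9 without MT194-GFP replicate 2, either MT486-Cre replicate or MT486-GFP replicate 1. Of the 153 genes, 8 were among them. Atf3 rose with Cre by 2.40 in DMT, 0.85 in MT194 and 0.99 in MT486, a difference of 1.48 (SE 0.20, edgeR adjusted p = 0.00766). Plk2, a stress-responsive polo-like kinase, rose by 1.89, 1.02 and 1.06 (difference 0.85), and Higd1a, a hypoxia-induced mitochondrial protein, by 1.72, 0.99 and 0.83 (difference 0.81). Slc15a2 fell more in DMT, with Cre effects of -1.99, -0.56 and -0.67 (difference -1.37), as did Fmo1, with -3.51, -2.41 and -2.05 (difference -1.29). Ccl5, a chemokine gene, rose with Cre by 1.03 in MT194 and 1.13 in MT486 and by 0.11 in DMT, a difference of -0.97 (SE 0.12, edgeR adjusted p = 0.00524). Its contrast was -0.48 after Ad-Cre (edgeR adjusted p = 0.00667) and 0.49 after Ad-GFP (edgeR adjusted p = 0.0246), neither past the fold threshold of a call, with 27.4 and 23.8 CPM in DMT-GFP against 15.2 to 23.3 in the single mutants. In DMT-Cre the gene was at 31.0 and 24.8 CPM, overlapping EV-Cre at 28.5 and 19.8, while WT-Cre was at 50.9 and 40.0.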

How the data were processed

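Poly(A) RNA of Nelfb flox/- MEF populations was sequenced as 50-base single reads from stranded libraries. Per the labels and the study's methods, the deposited values are read counts per gene, made by the authors with Bowtie2 alignment to mm10, removal of reads of mapping quality under 30 and HTSeq. The strand setting of the counting is not given in the sources used here. Counts were used as deposited for 24421 genes, leaving out lines that name no gene (no feature, 11.7% to 21.3% of reads, and ambiguous, 0.911% to 1.05%). The 15 clone libraries were not used.

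All 20 day-7 libraries were fitted together in edgeR 4.0.16 (R 4.3.3) with TMM scaling, the filterByExpr filter (13805 genes kept), 1 mean per group and the replicate number as a block, by the robust quasi-likelihood test. P-values were adjusted over all genes by Benjamini-Hochberg. DMT-Cre was contrasted with the equally weighted mean of MT194-Cre and MT486-Cre. Calls needed an adjusted p under 0.05 together with a log2 fold change beyond 0.5 in either direction. Within-repeat differences were taken on log2 CPM with a prior count of 2. The labels number the repeats, and the 10 groups' replicate deviations correlated in all 45 pairs of groups (0.42 to 0.73), which is the check of the pairing. Data were simulated for this contrast over 13741 genes, with the spread and block of the fit. The changed genes were drawn among those with an average log2 CPM over 1. Of 100 genes changed by 1 log2 unit 95% were called, and of 100 changed by 2 log2 units 100% were. Genes of lower level, and libraries that depart from the fit, were not covered. DESeq2 1.42.0 was an alternative, as were other library sets, scaling, filters and thresholds, no block, and each library left out.

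Genes named were the NELF subunits, the 10 largest called changes in each direction where groups did not overlap and counts averaged 50 or more, the 5 largest in each direction against both mutants without overlap, up to 4 called members per list, and the 3 largest called in each direction after Ad-GFP and for the difference of Cre effects under the same limits on counts and overlap (after Ad-GFP in the Ad-GFP libraries, for the difference in the Ad-Cre libraries). Gene lists came from general knowledge. Members and lists were chosen with earlier results of these data known. Some genes that the naming rule gave are not reported here.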

Additional observations from a re-analysis of the deposited data

Results flagged for a closer look

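For 16 genes the Cre effect in DMT differed from the mean Cre effect in MT194 and MT486 by the test of that difference (edgeR, replicate block). Rising more with Cre in DMT were Atf3 (difference 1.48 on the log2 scale), Plk2 (0.85), Higd1a (0.81), Klf4 (0.76), Klhl21 (0.75), Esd (0.70), Zfand2a (0.69) and Fam162a (0.62). Fam162a and Higd1a encode hypoxia-induced mitochondrial proteins, Klf4 is a stress-responsive transcription factor, and Zfand2a is induced by arsenite and heat. Fam162a was at 135 and 126 CPM in DMT-Cre, 99.9 and 79.1 in MT194-Cre and 93.1 and 73.3 in MT486-Cre, against 45.2 and 37.5 in DMT-GFP.

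Falling more with Cre in DMT, or rising less, were Slc15a2 (-1.37), Fmo1 (-1.29), Ptn (-1.22), Stac2 (-0.97), Ccl5 (-0.97), Gas2 (-0.88), Abca9 (-0.81) and Mmd (-0.68). For Ptn, Gas2, Abca9 and Mmd the contrast after Ad-Cre was not called and DMT was higher after Ad-GFP. Mmd was at 167 and 193 CPM in DMT-GFP, 120.5 and 113 in MT194-GFP and 117 and 122 in MT486-GFP, and at 122 and 110.5 in DMT-Cre. Ptn, which encodes the growth factor pleiotrophin, was at 31.1 and 54.8 CPM in DMT-GFP against 15.5 to 35.3 in the other 2 constructs. For these 4 genes the difference of Cre effects thus includes a difference between populations that still had the floxed allele.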

How the results depend on the processing

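The counts of called genes depended on the replicate block: without it they were 1 (against the mean of the single mutants), 0 (against MT194-Cre, with 414 genes at an unadjusted p under 0.05), 3 (against MT486-Cre), 2 (after Ad-GFP) and 0 (difference of Cre effects, 299 genes at an unadjusted p under 0.05). With a log2 fold change over 1 the counts were 45, 43, 126, 14 and 4, and with no threshold on it 301 against the mean and 714 against MT486-Cre. With only the 6 libraries compared they were 240, 185, 640 and, after Ad-GFP, 144. DESeq2 gave 77 after Ad-GFP and 89 for the difference of Cre effects, the 10 Ad-GFP libraries alone gave 140, the 12 libraries of the 3 mutants gave 0 for the difference of Cre effects (1198 at an unadjusted p under 0.05) and no filter gave 38. Leaving out each library in turn, which leaves 1 sample in its group, gave 12 to 190 genes against the mean, 20 to 294 against MT194-Cre, 115 to 499 against MT486-Cre, 1 to 30 after Ad-GFP and 0 to 90 for the difference of Cre effects. The lowest of these came without DMT-Cre replicate 2 (against the mean and MT194-Cre), MT486-Cre replicate 1 (against MT486-Cre) and DMT-GFP replicate 2 (the other 2). The causes were not tested.

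The median position between EV-Cre and WT-Cre was 0.221 in DMT without the block and, with EV-GFP as the upper reference, 0.208 in DMT and 0.375 in MT194. Of 41 named genes past an adjusted p of 0.05, none reversed direction under any alternative run and none was past it without the block (Ndn, the call kept there, was named only for that). With the block, 8 passed it under every alternative run. Leaving out each library, Nelfcd ranged from -0.11 to 0.0395 and Mmp9 from -0.22 to 0.48, neither of them called after Ad-Cre. Added after seeing the data, counts for the 4 stress lists without each library ranged from 2 to 13 (hypoxia), 2 to 9 (NRF2), 0 to 7 (ATF4) and 1 to 5 (immediate early), with 0 in each without the block, where the medians were 0.39, 0.21, 0.28 and 0.23. With 2 samples a group, changes under 1 log2 unit are measured with limited precision.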
